A study of Mus musculus with 12 samples.

Results

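Liver stores glucose as glycogen, and 9 genes for building and breaking down that store were described in mouse liver mRNA: *Gyg*, *Ugp2*, *Gys2*, *Gbe1*, *Pygl*, *Phka2*, *Ppp1r3b*, *Ppp1r3c* and *Ppp1r3g*. They were chosen by name from the 25164 genes listed, for their known roles. Earlier results of these data were known when they were chosen. All 9 were counted in every library and all 9 passed the filter on low counts that left 13477 genes for testing. RNA-seq was run on whole liver from 3 groups of 4 libraries. HFD + fenofibrate mice were fed high-fat chow throughout a 14-week study, and from week 10 they were also gavaged with fenofibrate, a fibrate that acts through PPARα, for the remaining 4 weeks. HFD mice were fed the same chow for all 14 weeks without the drug. Control mice stayed on normal feed for the same time, and each group started with 10 mice. The sources used here do not state the dose, strain, sex or age, the time of day and feeding state at collection, or whether HFD and Control mice were gavaged with vehicle.

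Glycogen is a branched glucose polymer that grows on the protein glycogenin. UDP-glucose is the sugar donor, glycogen synthase lengthens the chains, and the branching enzyme adds the branch points. Glycogen phosphorylase releases glucose 1-phosphate from the chain ends after phosphorylase kinase has activated it, and the liver uses the store to feed glucose to the blood between meals. Protein phosphatase 1 turns the synthase on and the phosphorylase off, and it is held on the glycogen particle by targeting subunits of the PPP1R3 family. Much of the control of this pathway is by phosphorylation and by glucose 6-phosphate, which mRNA levels do not show. Glycogen itself and enzyme activity are not part of these data.

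The levels below are TMM-scaled CPM, that is, counts set against the library total after scaling by the trimmed mean of M values, and log2 fold changes come from edgeR's quasi-likelihood test over all genes with Benjamini-Hochberg adjusted p-values. A gene is said to rise or fall where its adjusted p was under 0.05. Libraries held 15797016 to 18514481 counts. Hepatocyte markers summed to 116770 ± 8168 CPM of the total count in HFD + fenofibrate livers, 122639 ± 5431 in HFD livers and 132462 ± 6038 in Control livers (SD, n = 4 each). Over 30 exact two-sided permutation tests of marker sums, the smallest adjusted p was 0.321, and a single marker set could not pass, because 4 against 4 libraries allow no p below 0.0286. The 3 cholangiocyte markers were at that smallest p between HFD livers, at 4.62 to 8.52 CPM, and Control livers, at 9.50 to 14.5 CPM, which did not overlap. The 4 erythroid markers summed to 1171 CPM in HFD + fenofibrate library 1, against at most 476 CPM in each other library. Libraries 1 and 3 of the HFD + fenofibrate group stood apart, because their 6 striated muscle markers summed to 196 and 147 CPM, against at most 0.966 CPM in each of the other 10 libraries, where 2 to 5 of the 6 were at 0. Its library 1 also held 1604 CPM of 8 pancreatic acinar markers, against at most 0.859 CPM elsewhere, where 6 to 8 of the 8 were at 0. Without these libraries, which left 2 in that group, 124 of all genes tested passed between HFD + fenofibrate and HFD, against 1816 with them. With 1 library of the group left out, 898 passed without library 1, 2383 without library 2, 610 without library 3 and 1306 without library 4. Whether calls were lost through the smaller group or through the muscle and acinar RNA was not tested. The muscle and acinar RNA of libraries 1 and 3 was not tested as a source of any change below, and each result of the fenofibrate group is therefore also given without these libraries where its call changed.

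Per kilobase of exon, the 9 genes kept the same order of mean level in all 3 groups. *Ugp2* was highest, at 108 CPM per kb in HFD + fenofibrate livers, 162 in HFD livers and 83.5 in Control livers. *Ppp1r3g* was lowest, at 0.238 CPM per kb in HFD + fenofibrate livers, 0.405 in HFD livers and 1.06 in Control livers. Between them the order ran *Pygl*, *Gys2*, *Ppp1r3c*, *Ppp1r3b*, *Gbe1*, *Phka2*, *Gyg*. The libraries of *Pygl* and *Gys2* overlapped in level in every group, as did those of *Ppp1r3b* and *Gbe1*, so the order within those pairs was not larger than the spread. Other neighbours in the order overlapped in some groups. These were *Gys2* and *Ppp1r3c* in HFD and Control livers, and *Ppp1r3c* and *Ppp1r3b* in HFD + fenofibrate and HFD livers. In Control livers *Gyg* also overlapped both *Phka2* and *Ppp1r3g*. In HFD + fenofibrate and HFD livers the spread among libraries was wider for each phosphatase targeting subunit than for each of the other genes. In Control livers it was not, since the coefficient of variation was 8.45% for *Ppp1r3c*, against 21.3% for *Gyg* and 16.4% for *Gys2*. The median coefficient of variation of the 3 targeting subunits was 34.2% in HFD + fenofibrate livers, 49.8% in HFD livers and 46.9% in Control livers. For the 6 other genes it was 10.6% in HFD + fenofibrate livers, 8.98% in HFD livers and 12.6% in Control livers.

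**Figure D1:**
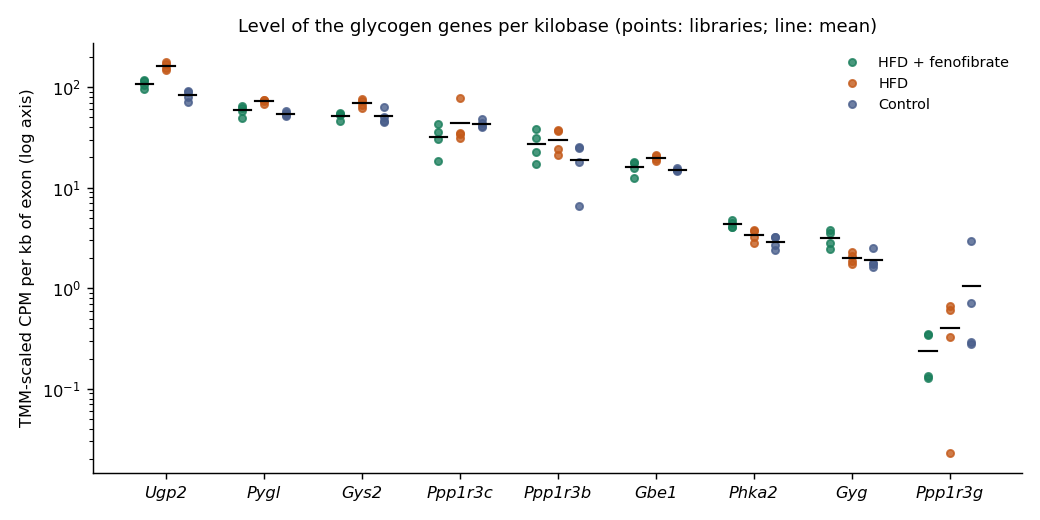
Level of the 9 genes in TMM-scaled CPM per kilobase of exon, on a log axis, with a point for each library and a line at the mean of 4 libraries in HFD + fenofibrate, HFD and Control livers. The genes run from *Ugp2*, at 83.5 to 162 CPM per kb in the group means, down to *Ppp1r3g*, at 0.238 to 1.06, and the points of the targeting subunits are spread wider than those of the other genes in HFD + fenofibrate and HFD livers, but not for *Ppp1r3c* in Control livers.

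Among the synthesis genes, *Gyg* (ENSMUSG00000019528, chr3:20122084-20155317, minus strand) encodes glycogenin, the primer on which a glycogen particle starts. Positions here are those of the deposited tables and, for 8 of the 9 genes, all but *Ppp1r3c*, are the same in GENCODE M21 (GRCm38). *Gyg* stood at 8.40, 6.66, 8.86 and 5.77 CPM in HFD + fenofibrate livers 1 to 4, at 4.93, 4.42, 4.05 and 5.33 CPM in HFD livers, and at 3.80, 4.09, 5.91 and 4.17 CPM in Control livers. All 4 HFD + fenofibrate livers were above all HFD livers, and 1 of them, library 4, lay below the highest Control liver. HFD and Control livers overlapped. The 2 highest fenofibrate values are those of libraries 1 and 3, which also held the muscle markers. *Gyg* averaged 7.42 ± 1.45 CPM in HFD + fenofibrate livers, 4.68 ± 0.562 CPM in HFD livers and 4.49 ± 0.957 CPM in Control livers (SD, n = 4 each). These rest on 580 counts in HFD + fenofibrate livers, 300 in HFD livers and 293 in Control livers.

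*Ugp2* (ENSMUSG00000001891, chr11:21321138-21371201, minus strand) encodes UDP-glucose pyrophosphorylase, which makes the sugar donor for glycogen. It stood at 349.6, 358, 292 and 326 CPM in HFD + fenofibrate livers, at 524, 543, 472 and 453 CPM in HFD livers, and at 219, 276, 247 and 282 CPM in Control livers. The 3 groups did not overlap, with HFD highest, HFD + fenofibrate between and Control lowest. The means were 332 ± 29.5 CPM in HFD + fenofibrate livers, 498 ± 42.7 CPM in HFD livers and 256 ± 29.2 CPM in Control livers (SD, n = 4 each). A gene on the opposite strand, *Gm12043*, overlaps its exons, with 9 counts in all 12 libraries against 74344 for *Ugp2*.

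*Gys2* (ENSMUSG00000030244, chr6:142422613-142473109, minus strand) encodes the liver form of glycogen synthase. It stood at 147, 140.0, 122 and 143 CPM in HFD + fenofibrate livers, at 193, 203, 164 and 177 CPM in HFD livers, and at 119, 169, 123 and 133 CPM in Control livers. Every HFD liver was above every HFD + fenofibrate liver, while Control library 2 reached into the HFD range and the other 3 Control livers lay below it. The means were 138 ± 11.04 CPM in HFD + fenofibrate livers, 184 ± 17.3 CPM in HFD livers and 136 ± 22.4 CPM in Control livers (SD, n = 4 each).

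*Gbe1* (ENSMUSG00000022707, chr16:70313949-70569716, plus strand) encodes the glycogen branching enzyme. It stood at 84.2, 94.2, 67.2 and 95.6 CPM in HFD + fenofibrate livers, at 98.5, 113, 104 and 109 CPM in HFD livers, and at 79.2, 80.0, 83.7 and 80.8 CPM in Control livers. The HFD livers were above all others. The HFD + fenofibrate livers lay on both sides of the narrow Control range, with library 3 below it. The means were 85.3 ± 13.1 CPM in HFD + fenofibrate livers, 106 ± 6.25 CPM in HFD livers and 80.9 ± 1.97 CPM in Control livers (SD, n = 4 each).

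On the breakdown side, *Pygl* (ENSMUSG00000021069, chr12:70190811-70231488, minus strand) encodes the liver glycogen phosphorylase. It stood at 430.1, 453, 338 and 395 CPM in HFD + fenofibrate livers, at 517, 518, 468 and 504 CPM in HFD livers, and at 359.6, 361, 378 and 397 CPM in Control livers. As for *Gbe1*, the HFD livers were above all others, and the HFD + fenofibrate livers spread across the Control range with library 3 below it. The means were 404 ± 49.97 CPM in HFD + fenofibrate livers, 502 ± 23.6 CPM in HFD livers and 374 ± 17.6 CPM in Control livers (SD, n = 4 each).

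*Phka2* (ENSMUSG00000031295, chrX:160502166-160598878, plus strand) encodes the liver alpha subunit of phosphorylase kinase, a regulatory subunit of the enzyme that activates the phosphorylase. It stood at 27.2, 24.4, 24.6 and 29.1 CPM in HFD + fenofibrate livers, at 23.0, 19.8, 22.6 and 17.3 CPM in HFD livers, and at 19.5, 14.6, 19.4 and 16.3 CPM in Control livers. All HFD + fenofibrate livers were above all livers of both other groups, which overlapped each other. The means were 26.3 ± 2.23 CPM in HFD + fenofibrate livers, 20.7 ± 2.67 CPM in HFD livers and 17.4 ± 2.41 CPM in Control livers (SD, n = 4 each).

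The synthase and the phosphorylase were also set against each other within each library, as the ratio of the *Gys2* count to the *Pygl* count, which needs no scaling between libraries. The ratio was 0.343, 0.309, 0.361 and 0.360 in HFD + fenofibrate livers, 0.374, 0.392, 0.351 and 0.351 in HFD livers, and 0.332, 0.467, 0.326 and 0.335 in Control livers. It averaged 0.343 ± 0.0243 in HFD + fenofibrate livers, 0.367 ± 0.0199 in HFD livers and 0.365 ± 0.0681 in Control livers (SD, n = 4 each). The groups overlapped. Control library 2 had the highest ratio of the 12, while the other 3 Control livers were below all HFD livers.

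**Figure D2:**
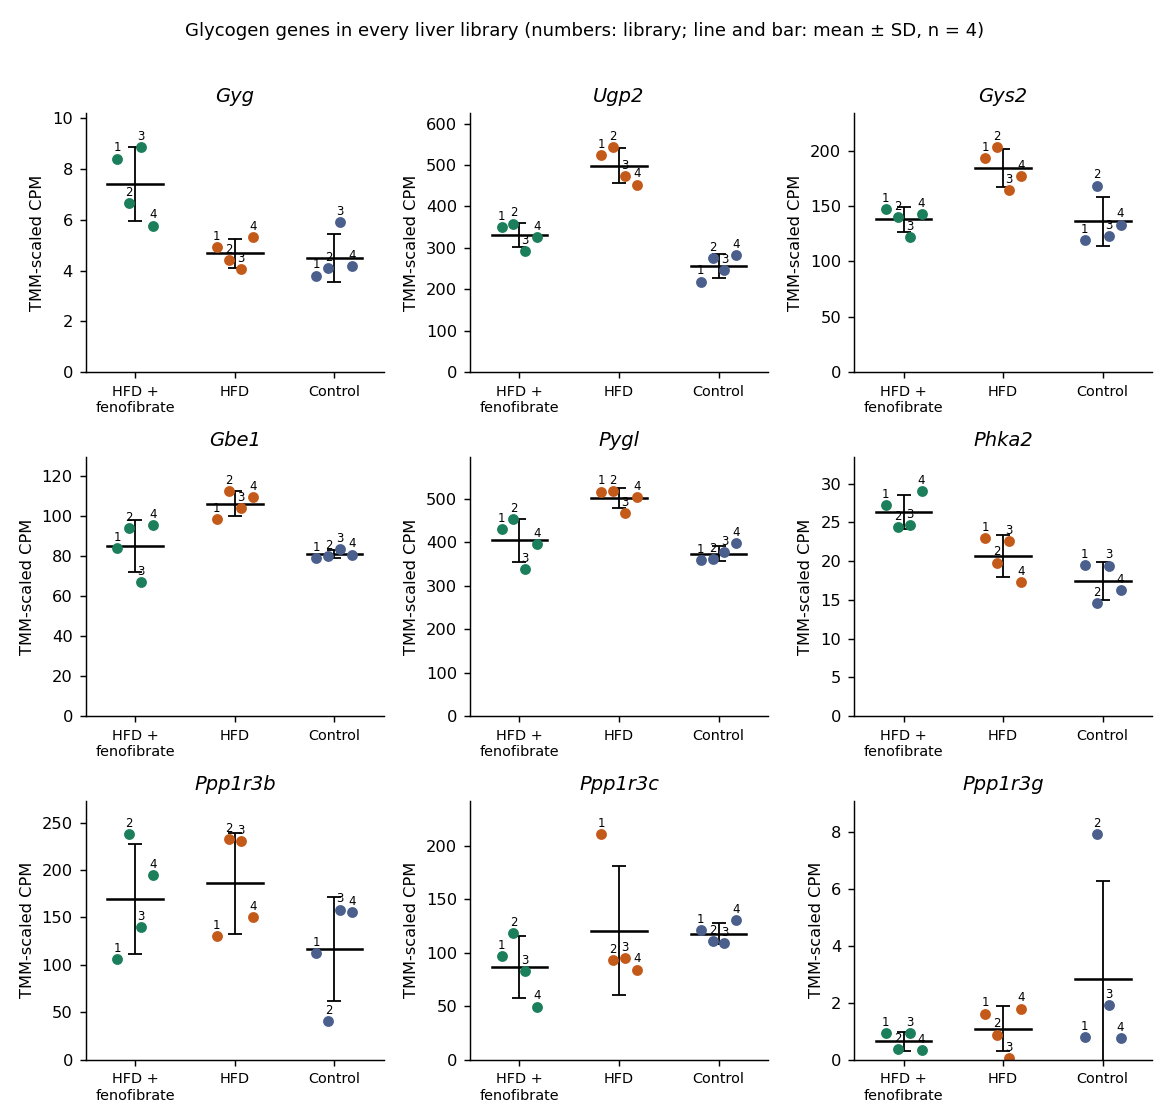
TMM-scaled CPM of each of the 9 genes in the 4 libraries of HFD + fenofibrate, HFD and Control livers, with points numbered by library and a line and bar at the mean ± SD, each panel starting at 0. *Ugp2* separates the 3 groups (332, 498 and 256 CPM in HFD + fenofibrate, HFD and Control livers), *Gbe1* and *Pygl* separate HFD livers from the others, and single libraries set the spread of *Ppp1r3c* in HFD livers and of *Ppp1r3g* in Control livers.

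Of the phosphatase targeting subunits, *Ppp1r3b* (ENSMUSG00000046794, chr8:35375739-35388139, plus strand) encodes the liver subunit known as GL. It stood at 106, 237, 140.1 and 195 CPM in HFD + fenofibrate livers, at 131, 233, 230.3 and 150.4 CPM in HFD livers, and at 112, 40.9, 158 and 155 CPM in Control livers. The groups overlapped, and Control library 2 was far below every other liver. The means were 170 ± 58.1 CPM in HFD + fenofibrate livers, 186 ± 53.1 CPM in HFD livers and 117 ± 54.8 CPM in Control livers (SD, n = 4 each).

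*Ppp1r3c* (ENSMUSG00000067279, chr19:36731737-36736653, minus strand) encodes the subunit called protein targeting to glycogen, which also binds the synthase and the phosphorylase. It stood at 96.8, 118, 82.9 and 49.7 CPM in HFD + fenofibrate livers, at 210.4, 92.8, 95.2 and 84.1 CPM in HFD livers, and at 121, 111, 109 and 130.3 CPM in Control livers. HFD library 1 was above all other livers, and the other 3 HFD livers were below all Control livers. The means were 86.9 ± 28.8 CPM in HFD + fenofibrate livers, 121 ± 60.1 CPM in HFD livers and 118 ± 9.95 CPM in Control livers (SD, n = 4 each).

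*Ppp1r3g* (ENSMUSG00000050423, chr13:35958839-35970388, plus strand) encodes a subunit whose liver mRNA is known in mice to change between fasting and feeding. It stood at 0.939, 0.360, 0.925 and 0.345 CPM in HFD + fenofibrate livers, at 1.62, 0.884, 0.0614 and 1.80 CPM in HFD livers, and at 0.783, 7.91, 1.93 and 0.747 CPM in Control livers. Control library 2 was above all other livers, and this is the library with the lowest *Ppp1r3b* value. The means were 0.642 ± 0.335 CPM in HFD + fenofibrate livers, 1.09 ± 0.792 CPM in HFD livers and 2.84 ± 3.42 CPM in Control livers (SD, n = 4 each). These rest on 51 counts in HFD + fenofibrate livers, 69 in HFD livers and 179 in Control livers, so single libraries of this gene hold few counts.

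Promoter sequences are shown for *Ugp2*, which had the largest log2 fold change of the 4 members that passed between HFD and Control. They are also shown for *Gyg* and *Ppp1r3c*, which alone of the 7 members with a promoter sequence held a CACGTG E-box. Clock transcription factors and others can bind this motif. The sequences come from RefSeq on GRCm38.p6 and run 5′ to 3′ on the gene's strand, from 250 bases before the RefSeq start to 20 bases after it. Capitals mark the E-box. The *Ugp2* window is chr11:21371248-21371517, the *Gyg* window chr3:20155097-20155366 and the *Ppp1r3c* window chr19:36736585-36736854, all on the minus strand.
Ugp2: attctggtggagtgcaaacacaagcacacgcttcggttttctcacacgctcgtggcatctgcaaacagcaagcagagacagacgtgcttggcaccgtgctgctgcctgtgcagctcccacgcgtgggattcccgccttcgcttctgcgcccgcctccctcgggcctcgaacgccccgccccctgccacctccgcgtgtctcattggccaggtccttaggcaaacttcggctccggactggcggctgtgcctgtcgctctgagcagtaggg
Gyg: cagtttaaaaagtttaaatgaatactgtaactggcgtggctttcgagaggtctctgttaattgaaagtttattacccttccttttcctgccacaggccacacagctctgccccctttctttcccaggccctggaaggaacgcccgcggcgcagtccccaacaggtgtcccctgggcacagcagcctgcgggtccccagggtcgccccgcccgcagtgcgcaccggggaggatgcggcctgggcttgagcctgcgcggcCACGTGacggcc
Ppp1r3c: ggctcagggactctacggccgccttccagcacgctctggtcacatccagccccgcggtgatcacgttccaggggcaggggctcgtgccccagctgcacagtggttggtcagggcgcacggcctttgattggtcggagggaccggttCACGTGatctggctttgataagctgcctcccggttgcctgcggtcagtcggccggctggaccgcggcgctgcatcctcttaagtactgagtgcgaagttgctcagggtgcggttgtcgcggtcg
In *Gyg* the E-box lies 9 to 14 bases after the RefSeq start, and in *Ppp1r3c* it lies 104 to 99 bases before that gene's RefSeq start. The deposited position of *Gyg* reaches chr3:20155317, upstream of its RefSeq start. By that position most of the printed *Gyg* window, with the E-box, lies inside the gene. RefSeq windows of 300 bases, 250 before and 50 after the start, were matched for 7 of the 9 members by symbol, with 8 windows in all. *Gys2* and *Ppp1r3b* had no window, so whether they hold any of these motifs was not searched. The E-box was in 2 of the 8 member windows and in 7.15% of all 32851 windows. On both strands, TGACGTCA (the cAMP response element), the consensus direct repeat 1 (a pair of nuclear receptor hexamers that PPARα can bind) and TTATGTAA (a D-box core) were in 0 of the 8, and in 1.79%, 0.04% and 0.94% of all windows. A match is a run of letters and not a measured binding site.

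HFD against Control compares the diets in mice without the drug, although time of day, feeding state and vehicle gavage are not stated. *Ugp2* rose 1.94-fold in HFD livers, *Gys2* 1.36-fold, *Pygl* 1.34-fold and *Gbe1* 1.31-fold, so that genes of synthesis and the phosphorylase of breakdown were higher at the same time. The primer gene *Gyg*, the kinase subunit *Phka2* and the 3 targeting subunits did not pass the test. In whole liver, fewer cells of a type and less RNA per cell cannot be told apart. In all, 4 of the 9 members were higher and 0 lower, where 6.13% of all genes tested were higher, 6.64% lower and 12.8% either. By edgeR at an unadjusted p under 0.05, and by DESeq2 and limma-voom after adjustment, 0 members were lower as well. The members' median log2 fold change was 0.39, against -0.02 over all genes tested.

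The log2 fold change of *Ugp2* in HFD livers over Control livers was 0.96 ± 0.11 (SE; adjusted p = 4.98e-05). *Pygl* had 0.42 ± 0.10 (adjusted p = 0.0119), *Gys2* 0.44 ± 0.12 (adjusted p = 0.0231) and *Gbe1* 0.39 ± 0.11 (adjusted p = 0.0243). HFD livers were above all Control livers for *Ugp2*, *Gbe1* and *Pygl*, 3 of the 9, and below them all for 0. Over all genes tested, 8.48% were separated upwards and 9.16% downwards. *Phka2* stood at 0.24 ± 0.12 (adjusted p = 0.213) and *Gyg* at 0.06 ± 0.19 (adjusted p = 0.876). *Ppp1r3b* had 0.67 ± 0.34 (adjusted p = 0.219), or 0.39 without Control library 2. *Ppp1r3g* had -1.37 ± 0.73 (adjusted p = 0.244), or -0.08 without that library, and *Ppp1r3c* had 0.03 ± 0.27 (adjusted p = 0.953), or -0.38 without HFD library 1. The authors' deposited table gave the same 4 genes an adjusted p under 0.05, from 1.09e-15 for *Ugp2* to 0.00733 for *Gys2*.

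The calls of *Ugp2* and *Pygl* held with each library left out in turn. That of *Gys2* was lost without HFD library 1 or 2 or Control library 1, 3 or 4 (log2 0.39 to 0.43, adjusted p 0.0520 to 0.0741), and that of *Gbe1* without HFD library 2 or 4 or Control library 4 (log2 0.36 to 0.39, adjusted p 0.0503 to 0.0701). Without HFD library 2, or without Control library 4, 2 of the 4 calls remained. Over all genes tested, 1159 and 1491 were called in these fits, against 1721 with all libraries.

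Genes around the pathway were counted from lists chosen by role. Of 26 other glycogen genes 21 were tested, and 1 was higher and 2 lower in HFD livers. Over all genes tested, 6.13% were higher, 6.64% lower and 12.8% either. *Stbd1*, which tethers glycogen to membranes, rose by 0.60 ± 0.14 on the log2 scale (adjusted p = 0.00969). *Gaa*, the lysosomal enzyme that degrades glycogen, fell by 0.48 ± 0.12 (adjusted p = 0.0150), a call lost without Control library 1 (log2 -0.37) or without scaling factors (log2 -0.43, adjusted p = 0.0664). *Ppp1cc*, a catalytic subunit of protein phosphatase 1, fell by 0.49 ± 0.09 (adjusted p = 0.00188).

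Glucose 6-phosphate links glycogen to blood glucose, and 2 of 4 genes of its supply and release rose in HFD livers while 1 fell. Of all genes tested, 6.13% rose and 6.64% fell. The glucose transporter gene *Slc2a2* rose by 0.84 ± 0.11 (log2, adjusted p = 2.45e-04), and *Gckr* by 0.37 ± 0.09 (adjusted p = 0.0167), a call lost without HFD library 2 (log2 0.35, adjusted p = 0.0503). *Slc37a4*, the glucose 6-phosphate transporter of the endoplasmic reticulum, fell by 0.54 ± 0.14 (adjusted p = 0.0181), lost without HFD library 1 or 4 or Control library 3. *G6pc*, the catalytic subunit of glucose 6-phosphatase, had -0.64 ± 0.29 (adjusted p = 0.162).

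Of 8 genes of hormone signalling to the glycogen enzymes, 0 were higher and 2 lower in HFD livers, against 6.13% and 6.64% of all genes tested. *Irs2*, an insulin receptor substrate, fell by 1.47 ± 0.23 on the log2 scale (adjusted p = 8.14e-04). *Akt1* fell by 0.36 ± 0.10 (adjusted p = 0.0316), lost without HFD + fenofibrate library 1, HFD library 1, 2 or 3, or Control library 1 or 4 (log2 -0.27 to -0.37). It was also lost without scaling factors (adjusted p = 0.141) and without HFD + fenofibrate libraries 1 and 3 (adjusted p = 0.0592). At an unadjusted p, 1 gene of the list was higher, as by DESeq2 after adjustment, and 0 by limma-voom.

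Clock genes are listed because liver glycogen genes are known to cycle through the day. Of 14 clock genes, 7 rose and 4 fell in HFD livers, against 6.13% and 6.64% of all genes tested. On the log2 scale *Dbp* rose by 3.67, *Nr1d1* by 2.74, *Nr1d2* by 1.31, *Per3* by 1.31, *Per2* by 0.85, *Tef* by 0.76 and *Hlf* by 0.55, while *Arntl* fell by 1.52, *Npas2* by 1.51, *Cry1* by 1.34 and *Nfil3* by 0.70. Leaving out HFD library 2 or 3 ended the calls of *Per3*, *Per2*, *Tef*, *Npas2* and *Nfil3*, each of which was also lost without 2 or more other libraries. By limma-voom 5 rose and 4 fell, with *Per2* (adjusted p = 0.0735) and *Per3* (adjusted p = 0.0904) lost. With the replicate number as a block *Per2* (adjusted p = 0.0660) and *Tef* (adjusted p = 0.0754) were lost, and with only the 8 libraries compared *Per2* was (adjusted p = 0.0723). *Per2*, *Per3* and *Tef* were lost without scaling factors and without HFD + fenofibrate libraries 1 and 3 (adjusted p 0.0522 to 0.0592). Whether the clock genes and the glycogen genes share a cause was not tested.

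HFD + fenofibrate against HFD compares mice with and without the drug on the same diet, although time of day, feeding state and vehicle gavage are not stated. It shares the HFD libraries with the comparison above, so a chance shift in those libraries enters both with opposite sign. *Ugp2* fell to 0.666 and *Gys2* to 0.748 of the HFD level in HFD + fenofibrate livers, and *Gyg* rose 1.59-fold. *Pygl*, *Gbe1* and *Phka2* did not pass, although their groups did not overlap, and the targeting subunits overlapped. In all, 1 of the 9 members was higher and 2 were lower, where 6.89% of all genes tested were higher, 6.59% lower and 13.5% either. The members' median log2 fold change was -0.32, against 0.01 over all genes tested.

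**Figure D3:**
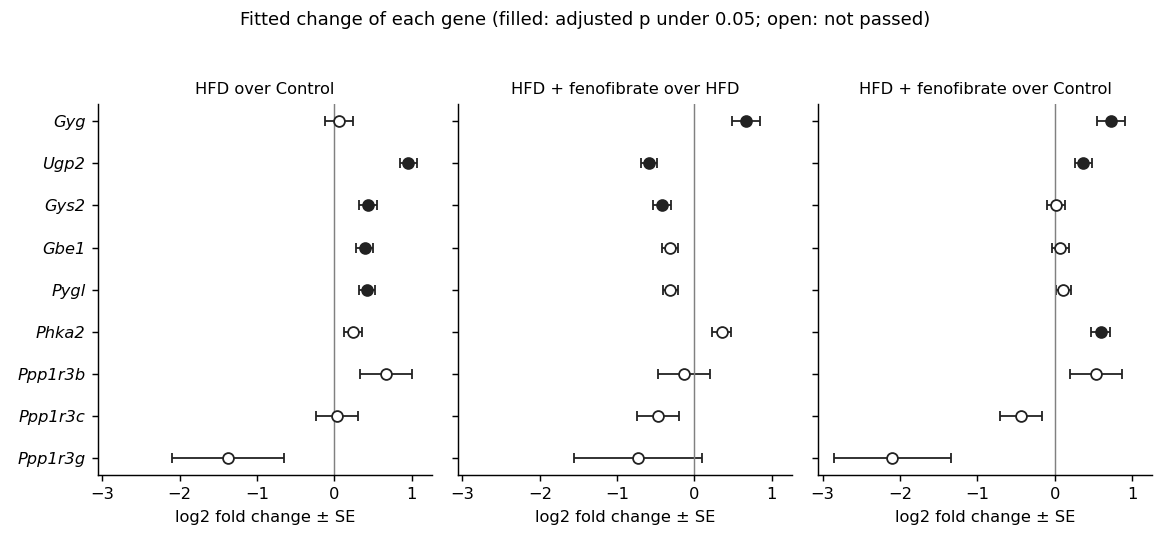
Log2 fold change ± SE of the 9 genes in HFD over Control, HFD + fenofibrate over HFD and HFD + fenofibrate over Control, from edgeR's quasi-likelihood fit, with filled points where the adjusted p was under 0.05. *Ugp2* is filled in all 3 panels (0.96, -0.59 and 0.37), *Gyg* in both panels with fenofibrate (0.67 and 0.73), and the targeting subunits are open in each.

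The log2 fold change of *Ugp2* in HFD + fenofibrate livers over HFD livers was -0.59 ± 0.11 (SE; adjusted p = 0.00414), and the call held with each library left out in turn. *Gys2* had -0.42 ± 0.12 (adjusted p = 0.0297), and *Gyg* had 0.67 ± 0.18 (adjusted p = 0.0254). HFD + fenofibrate livers were above all HFD livers for *Gyg* and *Phka2*, 2 of the 9, and below them all for *Ugp2*, *Gys2*, *Gbe1* and *Pygl*, 4 of the 9. Over all genes tested, 10.4% were separated upwards and 10.3% downwards. *Pygl* stood at -0.31 ± 0.10 (adjusted p = 0.0511), *Gbe1* at -0.32 ± 0.11 (adjusted p = 0.0575) and *Phka2* at 0.35 ± 0.12 (adjusted p = 0.0610). *Ppp1r3c* had -0.47 ± 0.27 (adjusted p = 0.250), *Ppp1r3g* -0.73 ± 0.82 (adjusted p = 0.578) and *Ppp1r3b* -0.13 ± 0.34 (adjusted p = 0.821). In the authors' deposited table the adjusted p was 0.0205 for *Pygl*, 0.0515 for *Gbe1* and 0.0446 for *Phka2*. *Pygl* also passed by DESeq2 (adjusted p = 0.0132) and limma-voom (adjusted p = 0.0454), *Gbe1* by DESeq2 (adjusted p = 0.0334), and *Phka2* with only the 8 libraries compared (adjusted p = 0.0396).

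The call of *Gys2* was lost without HFD + fenofibrate library 1 or 3 or HFD library 1, 2 or 4 (log2 -0.36 to -0.44, adjusted p 0.0510 to 0.0967), and that of *Gyg* without HFD + fenofibrate library 1 or 3 or HFD library 1, 2 or 3 (log2 0.57 to 0.69, adjusted p 0.0542 to 0.0928). The number of members called was 1 without HFD + fenofibrate library 1 or 3 or HFD library 1 or 2, and 5 without HFD + fenofibrate library 2 or Control library 1. Over all genes tested, 898, 610, 855, 1152, 2383 and 2416 were called in these fits, in the order named, against 1816 with all libraries. Without both HFD + fenofibrate libraries that held muscle markers, 2 were left in that group. By edgeR 0 of the 9 members then passed, and 124 of all genes tested. The log2 fold changes were then -0.54 for *Ugp2* (adjusted p = 0.0883), -0.38 for *Gys2* (adjusted p = 0.232) and 0.41 for *Gyg* (adjusted p = 0.359). Without scaling factors the median of all genes tested shifted to 0.18, and *Gys2* stood at -0.25 (adjusted p = 0.0977) and *Phka2* at 0.52 (adjusted p = 0.0222).

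The muscle forms of the enzymes were among the other glycogen genes, of which 4 of 21 tested were higher and 0 lower in HFD + fenofibrate livers. Over all genes tested, 6.89% were higher and 6.59% lower. At an unadjusted p 1 of the 21 was lower, as by DESeq2 after adjustment, and 0 by limma-voom. *Pygm*, the muscle phosphorylase, rose by 2.53 ± 0.61 on the log2 scale (adjusted p = 0.0156), with 8.45, 0.900, 5.89 and 0.986 CPM in HFD + fenofibrate livers, 0.607, 0.825, 0.552 and 0.806 CPM in HFD livers, and 0.671, 0.973, 0.808 and 0.747 CPM in Control livers. Libraries 1 and 3 with the muscle markers hold the high values, and without them the log2 fold change was 0.43 (adjusted p = 0.563). By limma-voom on all libraries it was 1.92 (adjusted p = 0.109). *Gys1*, the muscle synthase, rose by 0.89 ± 0.25 (adjusted p = 0.0303), with 3.21, 2.70, 5.26 and 2.66 CPM in HFD + fenofibrate livers and 1.55, 2.18, 1.90 and 1.80 CPM in HFD livers. Control livers ranged from 1.75 to 2.96 CPM of *Gys1* and overlapped HFD + fenofibrate livers. Without libraries 1 and 3 the log2 fold change of *Gys1* over HFD livers was 0.53 (adjusted p = 0.355).

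**Figure D4:**
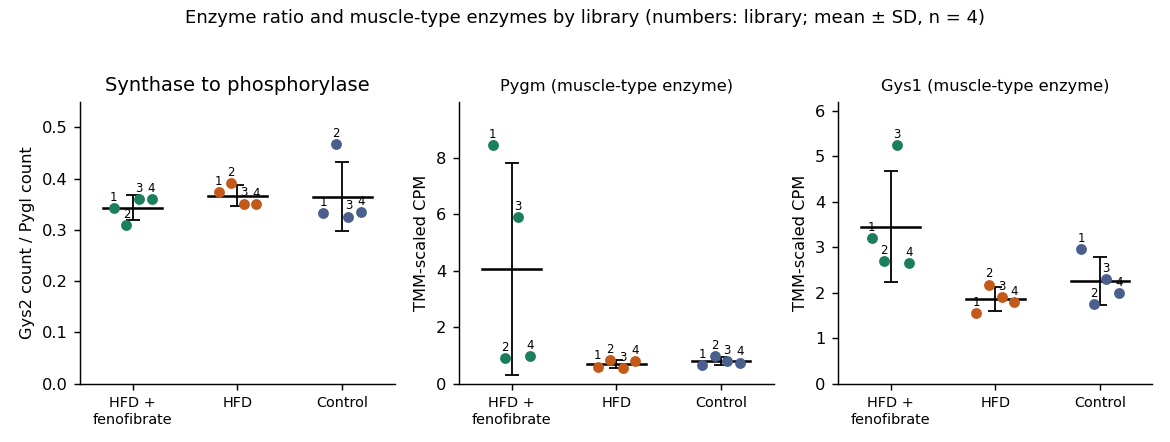
Ratio of the *Gys2* to the *Pygl* count, and TMM-scaled CPM of the muscle enzymes *Pygm* and *Gys1*, in the 4 libraries of HFD + fenofibrate, HFD and Control livers, with points numbered by library and the mean ± SD. The ratio overlaps between groups, with Control library 2 highest at 0.467, and *Pygm* is high in HFD + fenofibrate libraries 1 and 3 (8.45 and 5.89 CPM) and below 1 CPM in the other 10.

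*Gaa* rose by 0.56 ± 0.12 on the log2 scale (adjusted p = 0.00777) and *Ppp1cc* by 0.33 ± 0.09 (adjusted p = 0.0239) in HFD + fenofibrate livers over HFD livers. Without HFD + fenofibrate libraries 1 and 3 they stood at 0.48 (adjusted p = 0.141) and 0.31 (adjusted p = 0.226), and the call of *Ppp1cc* was also lost without HFD + fenofibrate library 3 or 4 or HFD library 1, 3 or 4 (log2 0.30 to 0.34). Single left-out libraries ended the calls of *Pygm* (HFD + fenofibrate library 1 or 3, log2 1.90 and 2.30) and *Gys1* (HFD + fenofibrate library 1 or 3 or HFD library 1, 3 or 4, log2 0.62 to 0.94).

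Among the 4 genes of glucose 6-phosphate supply and release, 0 passed in either direction between HFD + fenofibrate and HFD by edgeR. Of all genes tested, 13.5% did. At an unadjusted p 1 of the 4 was higher and 1 lower, DESeq2 called 1 higher and limma-voom 0. *G6pc* stood at -0.77 ± 0.29 (adjusted p = 0.0827), and passed with no filter on low counts (adjusted p = 0.0305). *Slc37a4* stood at 0.41 ± 0.14 (adjusted p = 0.0573), and passed by DESeq2 (adjusted p = 0.0360), without scaling factors (adjusted p = 0.0194) and with only the 8 libraries compared (adjusted p = 0.0414). Of the 8 hormone signalling genes 0 passed by edgeR or limma-voom, while DESeq2 called 2 higher, as did an unadjusted p. The glucagon receptor gene *Gcgr* stood at -0.15 ± 0.09 (adjusted p = 0.271) and *Prkaca*, a catalytic subunit of the cAMP-dependent protein kinase, at 0.27 ± 0.09 (adjusted p = 0.0576). *Prkaca* passed by DESeq2 (adjusted p = 0.0389), without scaling factors (adjusted p = 0.0171) and with only the 8 libraries compared (adjusted p = 0.0275). Of 14 clock genes, *Per3* rose by 1.27 ± 0.35 (log2, adjusted p = 0.0272) and *Per2* by 0.83 ± 0.24 (adjusted p = 0.0321), and *Clock* fell by 0.47 ± 0.14 (adjusted p = 0.0420). These 3 calls were lost without HFD + fenofibrate library 3 or 4 or HFD library 1 or 4, and also, for *Per2* and *Clock*, without HFD + fenofibrate library 1 and, for *Clock*, without HFD library 2. Without HFD + fenofibrate libraries 1 and 3 together, *Per3* stood at 1.25 (adjusted p = 0.193), *Per2* at 0.92 (adjusted p = 0.171) and *Clock* at -0.35 (adjusted p = 0.362). *Clock* was also lost without scaling factors (log2 -0.30, adjusted p = 0.0743).

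HFD + fenofibrate against Control sets the treated mice beside mice that received neither the high-fat diet nor the drug, and it shares libraries with both comparisons above. *Gyg* rose 1.65-fold, *Phka2* 1.51-fold and *Ugp2* 1.29-fold in HFD + fenofibrate livers. *Gys2*, *Gbe1* and *Pygl* were at 1.01, 1.05 and 1.08 times the Control level and did not pass. In all, 3 of the 9 members were higher and 0 lower, where 4.86% of all genes tested were higher, 4.31% lower and 9.17% either. At an unadjusted p under 0.05 by edgeR 1 member was lower, *Ppp1r3g*, and DESeq2 and limma-voom called 0 lower after adjustment. The members' median log2 fold change was 0.11, against -0.01 over all genes tested.

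The log2 fold change of *Phka2* in HFD + fenofibrate livers over Control livers was 0.59 ± 0.12 (SE; adjusted p = 0.00630). Its call held with each library left out in turn and without HFD + fenofibrate libraries 1 and 3 together. *Gyg* had 0.73 ± 0.18 (adjusted p = 0.0195), or 0.48 (adjusted p = 0.293) without those libraries, and *Ugp2* had 0.37 ± 0.11 (adjusted p = 0.0425), or 0.43 (adjusted p = 0.107) without them. HFD + fenofibrate livers were above all Control livers for *Ugp2* and *Phka2*, 2 of the 9, and below them all for 0. Over all genes tested, 6.89% were separated upwards and 6.26% downwards. *Gys2* stood at 0.02 ± 0.12 (adjusted p = 0.945), *Gbe1* at 0.08 ± 0.11 (adjusted p = 0.705) and *Pygl* at 0.11 ± 0.10 (adjusted p = 0.522). *Ppp1r3b* had 0.54 ± 0.34 (adjusted p = 0.347), *Ppp1r3c* -0.44 ± 0.27 (adjusted p = 0.340) and *Ppp1r3g* -2.10 ± 0.76 (adjusted p = 0.0974). Without Control library 2 *Ppp1r3g* stood at -0.81, and without Control library 1 it passed at -2.40 (adjusted p = 0.0471).

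The call of *Gyg* was also lost without HFD + fenofibrate library 1 or 3 or Control library 2 or 4 (log2 0.64 to 0.69, adjusted p 0.0569 to 0.0680). That of *Ugp2* held only without HFD + fenofibrate library 3 or HFD library 1 or 3, and was lost without each of the other 9 libraries (log2 0.32 to 0.42, adjusted p 0.0505 to 0.0916) and with the replicate number as a block (log2 0.37, adjusted p = 0.0537), with no filter on low counts (adjusted p = 0.0705) or with only the 8 libraries compared (adjusted p = 0.0748). The number of members called was 1 without HFD + fenofibrate library 1, Control library 2 or Control library 4. Over all genes tested, 781, 768 and 813 were called in these fits, in the order named, against 1236 with all libraries. Without scaling factors the median of all genes tested shifted to 0.20 and *Pygl* passed at 0.32 (adjusted p = 0.0249).

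In the same comparison, where 4.86% of all genes tested rose and 4.31% fell, 0 of the 21 other glycogen genes tested fell. The only 1 that rose was *Pygm*. It rose by 2.35 ± 0.59 on the log2 scale (adjusted p = 0.0220), or 0.26 (adjusted p = 0.791) without HFD + fenofibrate libraries 1 and 3, and its call was lost without library 1 or 3 of that group or Control library 3 or 4 (log2 1.73 to 2.36). It was also lost by limma-voom (log2 1.73, adjusted p = 0.169) and with the replicate number as a block (log2 2.05, adjusted p = 0.0507). Of these genes 5 were higher at an unadjusted p, 2 by DESeq2 and 0 by limma-voom, and 0 were lower by any of the 3. Of the glucose 6-phosphate genes, *Slc2a2* rose by 0.84 ± 0.11 (adjusted p = 5.09e-04) and *Gckr* by 0.43 ± 0.09 (adjusted p = 0.00899), while *G6pc* fell by 1.42 ± 0.29 (adjusted p = 0.00701). *G6pc* stood at 264, 438, 404 and 232 CPM in HFD + fenofibrate livers, at 863, 475, 386 and 561 CPM in HFD livers, and at 812, 1182, 1102 and 474 CPM in Control livers. Every HFD + fenofibrate liver was below every Control liver, and without HFD + fenofibrate libraries 1 and 3 *G6pc* stood at -1.40 (adjusted p = 0.0690). *Irs2* fell by 1.05 ± 0.23 (adjusted p = 0.00959) as the only hormone signalling gene that passed, and stood at -1.17 (adjusted p = 0.0502) without those 2 libraries.

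Of the 14 clock genes 8 rose and 4 fell in HFD + fenofibrate livers over Control livers, against 4.86% and 4.31% of all genes tested. On the log2 scale *Dbp* rose by 4.67, *Nr1d1* by 3.14, *Ciart* by 2.62, *Per3* by 2.58, *Per2* by 1.68, *Tef* by 1.25, *Nr1d2* by 1.23 and *Hlf* by 0.56. *Npas2* fell by 2.18, *Arntl* by 1.70, *Cry1* by 1.35 and *Nfil3* by 0.90. The call of *Ciart* was lost without HFD + fenofibrate library 3 or 4 or Control library 2, 3 or 4 (log2 2.14 to 2.83), and those of the other 11 held with each library left out in turn. It was also lost by limma-voom, which called 7 higher and 4 lower (adjusted p = 0.0897), and with the replicate number as a block (adjusted p = 0.0670). Without HFD + fenofibrate libraries 1 and 3 together, *Ciart* stood at 3.02 (adjusted p = 0.0763) and *Nfil3* at -0.67 (adjusted p = 0.165).

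The genes whose pattern over the 12 libraries was most like each of 5 members were taken from 7090 named genes with a mean of at least 10 CPM, by Pearson's r of log2 CPM. These are descriptions, since the 12 libraries share their 3 groups and their scaling. For *Gys2* they were *Ldah* (r = 0.96), *Dnajc22* (0.94) and *Il15ra* (0.94). For *Pygl* they were *Khk* (0.94), *Cd164* (0.94) and *Rspry1* (0.93). *Khk* encodes ketohexokinase, which takes up fructose into metabolism. For *Ppp1r3b* they were *Klhl42* (0.89), *Ido2* (0.85) and *Arhgap26* (0.84), and for *Ppp1r3c* they were *Ostm1* (0.91), *Senp6* (0.90) and *Zmpste24* (0.89). For *Ppp1r3g* they were *Enc1* (0.91), *Pdk4* (0.91) and *Enpp4* (0.90), and *Pdk4* encodes a pyruvate dehydrogenase kinase known to rise in fasting. *Ppp1r3g* held 122 counts in Control library 2 and 1 to 31 in each other library, so its r values rest on few counts. They can also rest on single libraries, since its range runs from 0.0614 CPM in HFD library 3 to 7.91 CPM in Control library 2. Its r values without these libraries were not tested.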

How the data were processed

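Liver RNA of 12 libraries was sequenced, and the deposited tables hold the authors' raw read counts per gene, with Ensembl identifiers, symbols and positions. The submitters' processing notes name HISAT2 2.0.5, HTSeq 0.6.0 and StringTie 1.3.2d and list mm8 and mm9, without saying which step used which. Of 25113 identifiers found in GENCODE M21 (GRCm38), 92.5% had the same position there, so exon lengths per kilobase came from M21. The sources used here do not say whether counting used strand. The authors' deposited tables also give, per gene, a mean normalised signal, a fold change as a ratio, its log2 value and p-values with adjusted p-values, which are printed only where named as theirs.

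The fenofibrate table and the diet table share 22657 genes and their HFD columns, in which 0 values differed. They were joined by identifier into 25164 genes. A gene missing from a table had no counts in that table's libraries. Counts were scaled by TMM and tested with edgeR 4.0.16 in R 4.3.3 (glmQLFit and glmQLFTest, filterByExpr, all 12 libraries in 1 fit with a coefficient per group, Benjamini-Hochberg over 13477 genes, threshold 0.05). The common biological coefficient of variation was 0.155. DESeq2 1.42.0, limma-voom (limma 3.58.1), other scalings, other filters, a replicate block, only the 8 libraries compared and left-out libraries were alternatives. Standard errors are the log2 fold change divided by the square root of F. On simulated data, a 1.5-fold change was recovered in 43.3% of genes for HFD against Control, 53.7% for HFD + fenofibrate against HFD and 52.2% for HFD + fenofibrate against Control, and a 2-fold change in 79.1%, 74.6% and 85.1%. The share of false calls was 7%, 5% and 2.5% in the same order. Far fewer genes were changed in the simulation than were called in the real data, so these shares do not give the recovery in the real data.

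Same-group libraries differed by more than sampling noise in all 18 pairs (chi-square per gene 13.9 to 38.5). The labels do not tell which mice shared a cage, a dissection day or a sequencing run. Each p-value sets a difference between groups against the spread among these libraries only. A cage, day or run shared by a whole group could not be told apart from the group. The 9 genes and the lists were chosen with earlier results of these data known. All 9 are named with every library's value. Of the listed genes around them, those that passed in a comparison are named with values, or the 2 most abundant per kilobase of exon where none passed. The glucose 6-phosphate list held 1 further gene, which is not reported here, so its counts are over 4. Marker sums were compared with exact permutation tests, which with 4 against 4 libraries cannot go below p = 0.0286. Per-gene counting error is smallest for the most counted genes and largest for *Ppp1r3g*.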

Additional observations from a re-analysis of the deposited data

Results flagged for a closer look

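In each group of 4 libraries, the highest or lowest value was compared with the rest, and a library was singled out where its gap to the nearest other, as a share of the group's range, exceeded Dixon's critical value for 4 samples. Of 117 groups examined 9 passed, where chance gives about 1 in 20.

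Among the 9 glycogen genes, HFD library 1 was highest for *Ppp1r3c* at 210.4 CPM and Control library 2 was highest for *Ppp1r3g* at 7.91 CPM. The ratio of *Gys2* to *Pygl* counts was highest in Control library 2, at 0.467. The same Control library was lowest for *Per2*, at 2.85 CPM, and HFD library 1 was highest for *Cry1*, at 14.4 CPM.

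Among the genes around the pathway, HFD + fenofibrate library 2 was lowest for *Gaa* at 102 CPM and highest for *Clock* at 44.2 CPM. Control library 1 was highest for *Hlf* at 45.8 CPM. Pancreatic acinar markers summed to 1604 CPM of the total count in HFD + fenofibrate library 1.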

How the results depend on the processing

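Over all alternatives, 249 values of the members' log2 fold changes kept their direction and their side of the threshold when no single library was left out, and 21 did not. With 1 library left out, 280 did and 44 did not. The values that kept their side include genes that were not called and stayed so. Of the 21, 9 lost a call, 9 gained a call and 3 turned direction. Of the 44, 31 lost a call, 6 gained a call and 7 turned direction. The number of members called between HFD + fenofibrate and HFD was 5 by DESeq2 (1 higher, 4 lower) and 0 without HFD + fenofibrate libraries 1 and 3 (0 higher, 0 lower). It was 3 without scaling factors (2 higher, 1 lower), and 2 were higher with only the 8 libraries compared. Over all genes tested, 2309 were called by DESeq2 and 124 without HFD + fenofibrate libraries 1 and 3. Without scaling factors 2510 were called and with only the 8 libraries 2287, against 1816 in the main fit. Against Control, 1 member was called (1 higher) without HFD + fenofibrate libraries 1 and 3, and 1 was lower, *Ppp1r3g* at -2.11 (adjusted p = 0.0271), with no filter on low counts. Over all genes tested, 373 and 1372 were called in these fits, against 1236 in the main fit. With 1 library left out, 2 to 4 members were called between HFD and Control, all higher. Between HFD + fenofibrate and HFD 1 to 5 were called (0 to 2 higher, 1 to 4 lower), and between HFD + fenofibrate and Control 1 to 3 (1 to 3 higher, 0 to 1 lower). Over all genes tested, the fits with 1 library left out called 1112 to 1762, 610 to 2416 and 717 to 1710 genes, in the same order. The causes were not tested.

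Directions that turned were those of small changes. *Ppp1r3c* between HFD and Control had -0.0686 by limma-voom and -0.0672 with a replicate block, and -0.38 to 0.17 with 1 library left out. *Gyg* there had -0.0091 to 0.22. *Ppp1r3b* between HFD + fenofibrate and HFD had 0.22 without HFD + fenofibrate libraries 1 and 3, and -0.34 to 0.044 with 1 library left out. *Gcgr* there had 0.019 without scaling factors. *Gys2* between HFD + fenofibrate and Control had -0.026 to 0.14 with 1 library left out.

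Deviations of same-numbered libraries from their group means had r from -0.18 to 0.14. Pairs of HFD + fenofibrate and Control libraries were at 0.07 to 0.14. Pairs of HFD + fenofibrate and HFD libraries were at -0.12 to 0.10, and pairs of HFD and Control libraries at -0.18 to 0.06. Differently numbered libraries were not compared, so whether the numbers mark a pairing or a batch was not tested. With the replicate block 1511, 1674 and 1104 genes were called between HFD and Control, HFD + fenofibrate and HFD, and HFD + fenofibrate and Control, against 1721, 1816 and 1236 without it, and 4, 3 and 2 members. Depth limits *Ppp1r3g* and *Gyg* most.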

Other observations

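*Ppp1r3a*, the muscle targeting subunit, had 0.544 and 0.535 CPM in HFD + fenofibrate libraries 1 and 3, 0.120 CPM in library 2 of that group, 0.0589 CPM in HFD library 2, and 0 in the other 8 libraries. The brain phosphorylase gene *Pygb* stood at 4.45, 3.66, 6.42 and 5.52 CPM in HFD + fenofibrate livers, 4.25, 5.54, 5.09 and 5.27 CPM in HFD livers, and 5.54, 4.54, 5.84 and 4.98 CPM in Control livers, which overlapped.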
